A study of Mus musculus with 4 samples.

Results

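The 3 genes described here are the engrailed genes En1 and En2 and the long non-coding RNA gene 2610027F03Rik, which lies next to En1 on the same strand. They are 3 of the 32285 genes in the deposited matrices and were taken by name. They were chosen because earlier results of the same libraries had shown how they differ between the groups, so their levels are given as descriptions with their spread and without a test. Cells sorted for the red fluorescent protein tdTomato (tdT) were collected from the mouse cerebellum at E14.5 (an embryonic day in mid-gestation) and profiled by droplet-based single-cell RNA sequencing from the 3′ end of transcripts. The 2 control libraries came from embryos of the genotype Atoh1-Cre/+; R26LSL-tdT/+. The 2 En1/2 conditional knockout (CKO) libraries came from embryos with the same Cre and reporter alleles that were also En1lox/lox and En2lox/lox. All 4 libraries therefore carry the Atoh1-Cre driver and the tdT reporter, and the control embryos carry no lox-flanked engrailed allele according to their labels. Cre acts in cells that express Atoh1 or descend from such cells, so cells outside that lineage keep both engrailed genes. Animals were pooled for each library, and the spread between the 2 libraries of a group is the only replicate error in these data.

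The engrailed genes encode homeobox transcription factors that mostly repress their targets, in part through Groucho corepressors of the Tle family. Both genes are switched on at the border of the midbrain and hindbrain, where fibroblast growth factor and Wnt signals keep them active, and both are needed to form and pattern the cerebellum. Atoh1 marks the rhombic lip, the germinal zone that gives rise first to excitatory neurons of the cerebellar nuclei and then to granule cell precursors and unipolar brush cells. The nuclei neurons express Meis2, a medial group of them expresses Tbr1 and Lmx1a, and granule cells and their precursors express Pax6. The protein products were not measured, and the transcript 2610027F03Rik has no role that is described here.

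En1 (ENSMUSG00000058665) lies on the plus strand of chromosome 1 at chr1:120602418-120607992 and En2 (ENSMUSG00000039095) on the plus strand of chromosome 5 at chr5:28165694-28172166, in GENCODE M21 (GRCm38, the assembly also called mm10). Each is a protein-coding gene of 2 exons. The long intergenic non-coding RNA (lincRNA) 2610027F03Rik (ENSMUSG00000099957) spans chr1:120621740-120690403 on the plus strand and starts 13747 bases past the end of En1. RefSeq gives it a wider span, chr1:120614654-120763567, with 21 transcripts, which brings its start to 6661 bases from the end of En1. RefSeq's promoter table for GRCm38.p6 holds 1 start site for En1 and 4 for 2610027F03Rik. Shown are the part of the En1 window that lies before the GENCODE start of En1 and the whole window of the first 2610027F03Rik start. They were picked because these genes lie on the same strand of the same locus, while their levels compared differently between the groups. Both are written 5′ to 3′ on the plus strand, with matches to CCAAT (read as ATTGG here) and CACGTG in capitals.
En1 chr1:120602237-120602417: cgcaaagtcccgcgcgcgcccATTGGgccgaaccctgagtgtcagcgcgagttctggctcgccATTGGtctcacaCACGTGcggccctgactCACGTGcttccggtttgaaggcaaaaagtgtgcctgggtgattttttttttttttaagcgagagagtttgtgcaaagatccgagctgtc
2610027F03Rik chr1:120614425-120614724: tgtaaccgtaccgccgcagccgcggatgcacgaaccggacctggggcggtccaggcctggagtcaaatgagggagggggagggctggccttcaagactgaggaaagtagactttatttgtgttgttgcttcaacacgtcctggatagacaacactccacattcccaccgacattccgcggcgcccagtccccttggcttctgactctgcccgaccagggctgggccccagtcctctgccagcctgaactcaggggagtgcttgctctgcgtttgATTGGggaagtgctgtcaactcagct
Each window of 250 bases before and 50 bases after a RefSeq start was searched on both strands for 4 short motifs. These were TAATTA (the core of many homeodomain sites), CAGCTG (an E-box), CACGTG (another E-box) and CCAAT (the box bound by nuclear factor Y), and none of these 4 motifs overlaps another match in the stretches shown. The En1 window held 2 CCAAT matches, 2 CACGTG matches and 1 CAGCTG match, and no TAATTA. The first 2610027F03Rik window held 1 CCAAT match, at position 24 past its start site, and none of the others. Of the 32817 windows of this length in the table, 37.4% held CCAAT, 16.3% CAGCTG, 7.15% CACGTG and 5.30% TAATTA. A match describes letters only, and no binding was measured.

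The libraries held 21351661 and 14998150 unique molecular identifiers (UMIs, each a tag for 1 captured RNA molecule) in controls 1 and 2, and 27138010 and 33709450 in CKO 1 and CKO 2. A barcode was kept as a cell when it had 500 or more genes, 1000 or more UMIs and no more than 10% mitochondrial UMIs, which left 2911, 3931, 2007 and 3697 cells in the same order. Depth moved with the genotype: the median kept cell had 2734 and 2122 UMIs in the controls against 5352 and 5544 in the CKO libraries. Cells of 4000 or more UMIs with no more than 5% of them mitochondrial made up 19.2% and 7.17% of the control cells and 45.9% and 51.2% of the CKO cells. Xist ran from 0.606 to 2254 UMIs per 1000000 (CPM) and haemoglobin from 3.01 to 4408 CPM over the 4 libraries, so the pools differed in this marker of female cells and in red cell RNA. No label gives a batch, and genotype and preparation cannot be told apart. Between 1 and 6 kept barcodes were shared by any pair of libraries.

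Classes of cells, 4 in all, were set by marker UMIs, as a rule and not as cell types. Cells with more Meis2 than Pax6 UMIs numbered 603, 2322, 573 and 372 in control 1, control 2, CKO 1 and CKO 2, and cells with more Pax6 than Meis2 UMIs numbered 1801, 961, 1208 and 2978. Cells with a Tbr1 or Lmx1a UMI numbered 144, 511, 264 and 148, and cells with a Gad1 or Gad2 UMI, the genes of the enzymes that make GABA, numbered 58, 87, 50 and 50. The last 2 classes overlap the others: 158, 476, 268 and 170 cells stood in 2 or more classes. The Meis2 class carried the cerebellar nuclei markers, at 2309 to 3030 summed CPM over 7 genes against 118 to 480 in the Pax6 class. The Pax6 class carried dividing-cell genes at 1498 to 2218 summed CPM over 6 genes, against 244 to 773 in the Meis2 class. In the Meis2 class those dividing-cell genes were higher in both CKO libraries, at 773 and 511 CPM against 369 and 244, as were 9 granule lineage genes, at 2899 and 3203 CPM against 2151 and 1971. Their part in the values of the members in this class was not tested. The Tbr1 or Lmx1a class was mixed, and its make-up differed between libraries. Of its cells, 49, 306, 95 and 28 were also in the Meis2 class and 74, 116, 145 and 109 in the Pax6 class. Its nuclei markers stood at 647, 1704, 833 and 309 summed CPM and its dividing-cell genes at 1549, 377, 1809 and 1682 CPM. The part of this mixture in the values of that class was not tested either.

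En2 stood far lower in the CKO libraries than in the controls in each of the 4 classes. In the Meis2 class En2 was at 257 and 188 CPM in controls 1 and 2 and at 46.8 and 43.8 CPM in CKO 1 and CKO 2. In the Pax6 class it was at 109 and 134 CPM against 22.1 and 17.0 CPM. Each CKO level was well below either control of its class, and they rest on 207, 78, 359 and 497 UMIs. The Tbr1 or Lmx1a class had 138 and 141 CPM against 22.2 and 19.5 CPM, and the Gad class had 206 and 172 CPM against 74.2 and 50.5 CPM. The groups did not overlap in any class, and En2 UMIs were still counted in every CKO library and class. How many of these came from RNA outside the cell is not known.

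As group means, En2 was 223 ± 49.3 against 45.3 ± 2.13 CPM in the Meis2 class (SD, n = 2 each) and 122 ± 17.7 against 19.5 ± 3.59 CPM in the Pax6 class. In the edgeR fit, in which a negative value means lower in the CKO libraries, the log2 fold change was -2.24 (SE 0.23) in the Meis2 class and -2.51 (SE 0.24) in the Pax6 class. It was -2.68 (SE 0.27) in the Tbr1 or Lmx1a class and -1.56 (SE 0.35) in the Gad class. With any 1 library left out, En2 stayed between -2.80 and -2.04 in the first 3 classes and between -1.83 and -1.27 in the Gad class. As background for the position of these libraries, the CPM of both CKO libraries lay below both controls for 24.6% of genes tested in the Meis2 class, 34.9% in the Pax6 class, 24.3% in the Tbr1 or Lmx1a class and 23.8% in the Gad class. The fits called 25 of 11804 genes (0.212%) in the Meis2 class and 8 of 13931 (0.0574%) in the Pax6 class at an adjusted p under 0.05. They called 1 of 10196 (0.00981%) in the Tbr1 or Lmx1a class and 27 of 6736 (0.401%) in the Gad class. The members were chosen on this contrast, so nothing is read from their place in these counts.

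En1, which the CKO genotype targets in the same cells, showed no such separation. The Meis2 class had it at 562 and 462 CPM in the controls against 347 and 743 CPM in the CKO libraries, so CKO 1 lay below and CKO 2 above both controls. The Pax6 class had it at 171 and 237 CPM against 93.0 and 212 CPM. CKO 1 was again the lowest library, while CKO 2 lay between the controls. Levels in the Tbr1 or Lmx1a class were 252 and 310 CPM against 162 and 293 CPM, with the same pattern. The Gad class was the exception, with 356 and 402 CPM in the controls against a lower 248 and 306 CPM in the CKO libraries.

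For En1 the log2 fold change was 0.12 (SE 0.31), -0.29 (SE 0.35), -0.26 (SE 0.34) and -0.42 (SE 0.33) in the Meis2, Pax6, Tbr1 or Lmx1a and Gad classes. Each estimate was within 1.5 SE of 0, and in the first 3 classes its sign turned on single libraries. For the Meis2 class it was 0.56 without CKO 1 and -0.47 without CKO 2. For the Pax6 class it was 0.18 without CKO 1 and -0.98 without CKO 2, for the Tbr1 or Lmx1a class 0.09 and -0.71. The Gad-class value was 0.0095 in sums of thinned cells. The 2 CKO libraries thus differed from each other in En1 by more than the controls did in each of the 4 classes. The kit reads the 3′ end of transcripts, and the sources used here do not say which part of each gene the lox sites flank. UMIs of En1 and En2 in the CKO libraries may come from a stretch outside the deletion, so they do not check whether the alleles were deleted.

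The lincRNA 2610027F03Rik stood above both controls in each CKO library in 3 of the 4 classes. Meis2-class cells had it at 56.5 and 39.7 CPM in the controls against 101 and 87.1 CPM in the CKO libraries. Pax6-class cells had it at 5.05 and 9.46 CPM, counted from 59 and 30 UMIs, against 35.3 and 29.3 CPM from 574 and 858 UMIs. The Pax6 class, where the lincRNA was scarcest in controls, thus had the largest ratio between the groups. Tbr1 or Lmx1a cells had it at 14.1 and 21.4 CPM against 48.9 and 44.2 CPM. In the Gad class the groups overlapped, with 38.9 and 53.6 CPM against 110 and 45.9 CPM.

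The log2 fold change of 2610027F03Rik was 1.05 (SE 0.22) in the Meis2 class, 2.41 (SE 0.31) in the Pax6 class, 1.41 (SE 0.32) in the Tbr1 or Lmx1a class and 0.82 (SE 0.45) in the Gad class. Its Pax6-class value was 1.94 without control 1 and 2.81 without control 2. Its Gad-class value was 0.07 without CKO 1 and 1.34 without CKO 2, so the mean difference there came from CKO 1. The share of all tested genes with both CKO libraries above both controls was 19.8% in the Meis2 class, 12.6% in the Pax6 class, 18.3% in the Tbr1 or Lmx1a class and 18.5% in the Gad class.

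**Figure D1:**
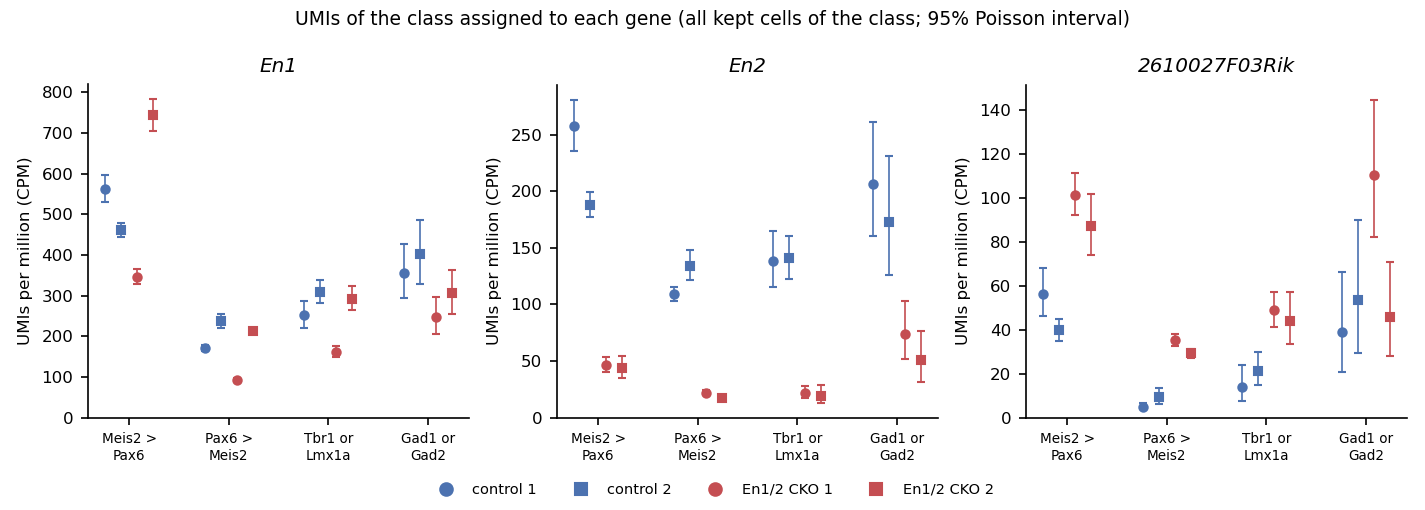
Level of En1, En2 and 2610027F03Rik (vertical axis, UMIs per 1000000 of the class) in each library of the 4 marker classes, with 95% Poisson intervals that cover counting error only. The CKO libraries of En2 sit between 17.0 and 74.2 CPM, below every control of their class, while the En1 points of CKO 1 and CKO 2 in the Meis2 class, 347 and 743 CPM, lie on either side of the controls.

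Since the fold changes compare libraries of different depth, the 3 genes were also set against each other within each library. Meis2-class cells had 2.18 and 2.46 En1 UMIs for each En2 UMI in the controls against 7.41 and 17.0 in the CKO libraries. Pax6-class cells had 1.56 and 1.76 against 4.21 and 12.5. A ratio within a library does not depend on its depth, and it shows that En1 and En2 UMIs changed unequally, not which of them changed. Counted against En1, 2610027F03Rik had 10.0 and 8.60 UMIs per 100 En1 UMIs in the control Meis2 class and 29.2 and 11.7 in the CKO libraries. The Pax6 class had 2.96 and 3.99 against 37.9 and 13.8. The ratio was higher in both CKO libraries in these 2 classes, but CKO 1 and CKO 2 differed more than 2-fold. En1 is the divisor of this ratio, so that difference mostly restates their En1 levels. The lincRNA levels of CKO 1 and CKO 2 themselves lay close, at 101 and 87.1 CPM in the Meis2 class and 35.3 and 29.3 CPM in the Pax6 class.

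The order of the classes was the same for En1 in all 4 libraries. Each library had its highest En1 level in the Meis2 class, followed by the Gad class, the Tbr1 or Lmx1a class and the Pax6 class, and in the controls neighbouring classes did not overlap. In the controls En2 overlapped between the Meis2 class (188 to 257 CPM) and the Gad class (172 to 206 CPM), which lay above the Tbr1 or Lmx1a class (138 to 141 CPM) and the Pax6 class (109 to 134 CPM). In both CKO libraries the order of En2 differed at the top, with the Gad class at 74.2 and 50.5 CPM above the Meis2 class at 46.8 and 43.8 CPM. The lincRNA in the controls also overlapped between the Meis2 and Gad classes, and the Tbr1 or Lmx1a class lay above the Pax6 class. Cells in none of the classes, 466, 533, 185 and 319 of them, had En1 at 373 and 379 CPM in the controls against 200 and 597 CPM in the CKO libraries. Their En2 was at 210 and 145 CPM against 48.7 and 58.1 CPM, and their 2610027F03Rik at 24.3 and 24.4 CPM against 52.0 and 78.7 CPM. The make-up of this set differed between libraries, with erythroid genes at 17016, 13846, 45297 and 16.8 summed CPM. The share of all genes placed likewise in it was not counted, so nothing is read from the order of the libraries there.

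Detection was then counted per cell at equal depth. Each cell was thinned at random to 2000 UMIs, which left out the 940, 1786, 422 and 1099 shallower cells of control 1, control 2, CKO 1 and CKO 2. Of Meis2-class cells, 35.2% and 28.9% of control cells and 10.5% and 12.2% of CKO cells had an En2 UMI. Among Pax6-class cells En2 was detected in 20.6% and 23.1% against 4.60% and 4.16% of cells. The mean shares were 32.1% ± 4.48 against 11.3% ± 1.20 and 21.9% ± 1.75 against 4.38% ± 0.312 (SD, n = 2 each). A smaller share of CKO cells therefore had a detected En2 UMI, beside the lower sum. Tbr1 or Lmx1a cells had shares of 22.0% and 23.9% against 3.74% and 8.18%, though the log2 ratio was 0.0589 in the 10, 50, 16 and 3 of them that stood in no other class. In the Gad class they were 26.7% and 25.5% against 20.5% and 15.4%, the narrowest gap of the 4 classes. On the same measure, both CKO libraries lay below both controls for 15.4% of detected genes in the Meis2 class, 30.8% in the Pax6 class, 19.7% in the Tbr1 or Lmx1a class and 16.2% in the Gad class.

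En1 was detected in 56.0% and 45.99% of control and 52.3% and 66.7% of CKO cells of the Meis2 class, and in 25.3% and 29.3% against 16.8% and 27.1% in the Pax6 class. Among Tbr1 or Lmx1a cells its shares of 31.2%, 30.7%, 31.8% and 37.3% set the libraries in another order than the CPM did, and no order is read from them. For 2610027F03Rik the shares were 8.27% and 6.58% against 20% and 15.8% in the Meis2 class and 1.42% and 1.91% against 7.00% and 6.73% in the Pax6 class. The lincRNA was thus found in a larger share of CKO cells also when each cell had the same number of UMIs. Tbr1 or Lmx1a cells held it in 4.59% and 3.54% against 7.94% and 10.9%, with a log2 ratio of -0.94 in those of no other class. In the Gad class the shares were 4.44% and 5.45% against 12.8% and 10.3%, where the CPM of the groups overlapped, and no order is read there. Both CKO libraries lay above both controls for 17.7%, 18.5%, 18.8% and 18% of detected genes in the Meis2, Pax6, Tbr1 or Lmx1a and Gad classes.

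**Figure D2:**
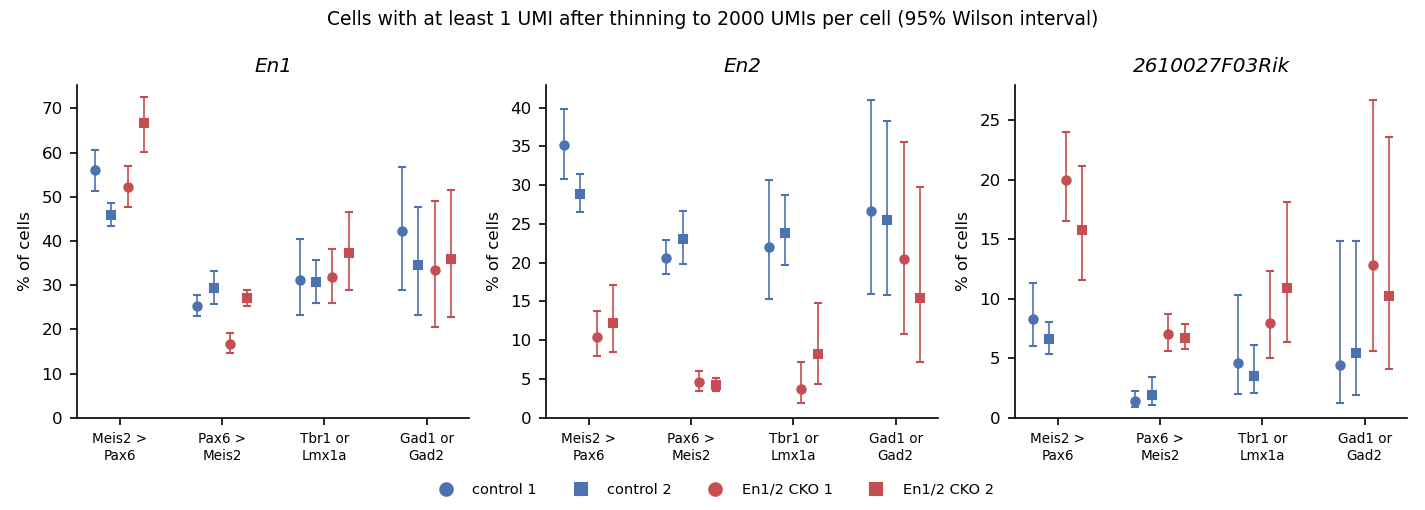
Percent of cells with at least 1 UMI of each gene (vertical axis) after thinning every cell to 2000 UMIs, per library and marker class, with 95% Wilson intervals for counting error. En2 shares of both CKO libraries lie below both controls in every class, with the smallest gap in the Gad class, where the shares run from 15.4% to 26.7% and the intervals of all 4 libraries overlap.

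Among cells with an En2 UMI, the share with 2 or more was lower in the CKO libraries. At equal depth such a share moves with the mean level, so it is no result separate from the levels and detection shares above. Of the Meis2-class cells with En2, 36.2% and 23.0% had 2 or more UMIs in the controls against 4.44% and 11.1% in the CKO libraries. The CKO values rest on 45 and 27 cells with En2. Among Pax6-class cells the shares with 2 or more were 16% and 18.8% against 8.33% and 6.38%. For En1 in the Meis2 class, 48.1% and 53.6% of positive control cells against 42.2% and 72.3% of positive CKO cells had 2 or more UMIs, which is the same split of CKO 1 and CKO 2 as in the summed level. None of the positive Pax6-class cells of the controls had more than 1 UMI of 2610027F03Rik, against 15.1% and 10.5% in the CKO libraries.

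Free RNA in a droplet can give a UMI to a cell that does not express the gene. Red blood cells, which should lack engrailed RNA, served as background: 16 control cells and 4 CKO cells had at least 50 haemoglobin UMIs. On all UMIs, En1 was found in 3, En2 in 5 and 2610027F03Rik in 1 of the 16 control cells, and in none of the 4 CKO cells. The En2 share of 31.2% has a 95% Wilson interval of 14.2% to 55.6%, at median depths of 2788 to 4639 UMIs. After thinning, 1 of 11 such cells of control 2 had En1 and none had En2 or the lincRNA, a count of 0 that allows a share of up to 27.3%. The 12 red cells of control 2 summed to 82.0 CPM of En1 (95% Poisson interval 26.6 to 191), 65.6 CPM of En2 (17.9 to 168) and 16.4 CPM of the lincRNA (0.415 to 91.3), from 5, 4 and 1 UMIs. The 4 red cells of control 1 had 1 UMI of En2, or 44.3 CPM, and none of the other 2 genes. The 4 red cells of CKO 1 had no UMI of any member, with an upper bound of 50.5 CPM, and CKO 2 had no red cell. The intervals of the control 2 red cells reach the control levels of En2 in the Pax6 class and the Tbr1 or Lmx1a class and the En1 level of control 1 in the Pax6 class, and the lincRNA interval reaches all control levels. The bound of the CKO 1 red cells lies above the En2 levels of CKO 1 in the Meis2, Pax6 and Tbr1 or Lmx1a classes (46.8, 22.1 and 22.2 CPM). It also lies above the lincRNA levels of CKO 1 in the Pax6 and Tbr1 or Lmx1a classes (35.3 and 48.9 CPM). These few red cells do not fix a background for either group, and levels within their intervals cannot be told apart from it. Erythroid genes alone made up 802985, 630983 and 581825 CPM of the red cells of control 1, control 2 and CKO 1. This dilutes the CPM of the members in red cells against those of the classes. Levels outside the intervals are therefore not shown to be clear of background.

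Each class was divided further by the UMIs left after thinning. Among Pax6-class cells, dividing precursors with Atoh1 (79, 32, 132 and 215 cells) had En2 in 22.8% and 34.4% of control and 2.27% and 4.19% of CKO cells. Precursors with Atoh1 that were not dividing had En2 in 20.8% and 28.6% against 5.96% and 3.77%. Cells with Neurod1, a factor of differentiating granule cells, and without Atoh1 had it in 20.1% and 22.3% against 3.38% and 3.97%. En2 was thus below both controls at each of these stages, where the CKO libraries were below for 19%, 23.3% and 26.3% of genes. En1 in the dividing precursors ran from 6.33% in control 1 to 43.8% in control 2, which is 5 of 79 and 14 of 32 cells. That spread within the controls was wider than the difference between the group means at this stage. Pax6-class cells with neither Atoh1 nor Neurod1 had En2 in 20.8% and 21.7% against 5.93% and 4.44%, where both CKO libraries were below for 24.6% of genes.

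The lincRNA overlapped between the groups in dividing Atoh1 cells and did not overlap in the other sets of the Pax6 class. Its shares in the dividing cells were 0% and 3.12% in the controls against 4.55% and 1.86% in the CKO libraries. In Atoh1 cells that were not dividing they were 1.79% and 0% against 5.30% and 4.72%, in Neurod1 cells 0.882% and 2.39% against 7.89% and 7.95%, and in cells with neither factor 2.12% and 1.55% against 7.65% and 7.51%. Both CKO libraries were above for 14.9%, 17.8% and 17.4% of genes in these 3 sets. Whether the stages differ in this gap was not tested, and the dividing set of control 2 held only 32 cells.

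Within the Meis2 class, cells were divided by Lhx2 and Lhx9, LIM homeobox factors of nuclei neurons. In cells with Lhx2, En1 was detected in 70% and 59.2% of control and 55.7% and 75.8% of CKO cells, and En2 in 50.9% and 34.4% against 8.72% and 10.6%. Cells with neither factor had less of both genes in the controls, with En1 in 46.8% and 35.2% and En2 in 25.1% and 22.3% of cells. In the CKO libraries they had En2 in 11.0% and 13.8%, which is no less than in the Lhx2 cells of the same libraries. The lincRNA was found in 13.6% and 13.5% of control Lhx2 cells against 24.8% and 16.7% in CKO, and in 6.90% and 2.98% against 17.9% and 18.3% of cells with neither. Both CKO libraries lay below both controls for 18.5% of genes in Lhx2 cells and 15.5% in cells with neither, and above for 17.7% and 17.5%. Meis2-class cells that still held Atoh1 (45, 80, 92 and 29 cells) had En1 in 66.7% and 62.5% of control and 48.9% and 62.1% of CKO cells. Their En2 was in 31.1% and 45% against 13.0% and 6.90%, where both CKO libraries were below for 19.2% of genes. Their lincRNA was in 15.6% and 6.25% against 22.8% and 24.1%, where both were above for 15.5%.

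Cells with Tbr1 were few, at 37, 115, 50 and 22. En1 was detected in 16.2% and 32.2% of the control and in a higher 44.0% and 54.5% of the CKO cells, where both CKO libraries were above for 15.1% of genes. The 95% Wilson interval of control 2, 24.3% to 41.2%, overlaps those of CKO 1 (31.2% to 57.7%) and CKO 2 (34.7% to 73.1%). In cells with Lmx1a the En1 shares overlapped, with 35% and 26.7% against 25.5% and 55.6%. The reverse was seen in cells with Eomes, a factor of unipolar brush cells (157, 129, 86 and 113 cells), where En1 was in 37.6% and 38.0% of control cells and a lower 22.1% and 22.1% of CKO cells. As means these were 37.8% ± 0.286 and 22.1% ± 0.0218 (SD, n = 2 each), and both CKO libraries were below for 22.2% of genes. The 95% Wilson intervals were far wider than these SDs, at 30.4% to 45.4% and 30.1% to 46.6% in the controls. In the CKO libraries they were 14.6% to 31.9% and 15.5% to 30.6%, which overlap those of the controls. The SDs therefore understate the error of these shares. En2 was lower in both CKO libraries and 2610027F03Rik higher in all 3 of these sets. The share of genes with both CKO libraries below was 16% in Tbr1 cells and 15.1% in Lmx1a cells, and the share with both above was 16.1% in Lmx1a cells and 18.2% in Eomes cells. In cells with Sox2, a factor of progenitors and glia, En2 was in 22.7% and 29.0% against 4.05% and 9.21%, where both CKO libraries were below for 19.4% of genes, and the lincRNA overlapped at 3.03% and 6.45% against 9.46% and 4.61%.

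**Figure D3:**
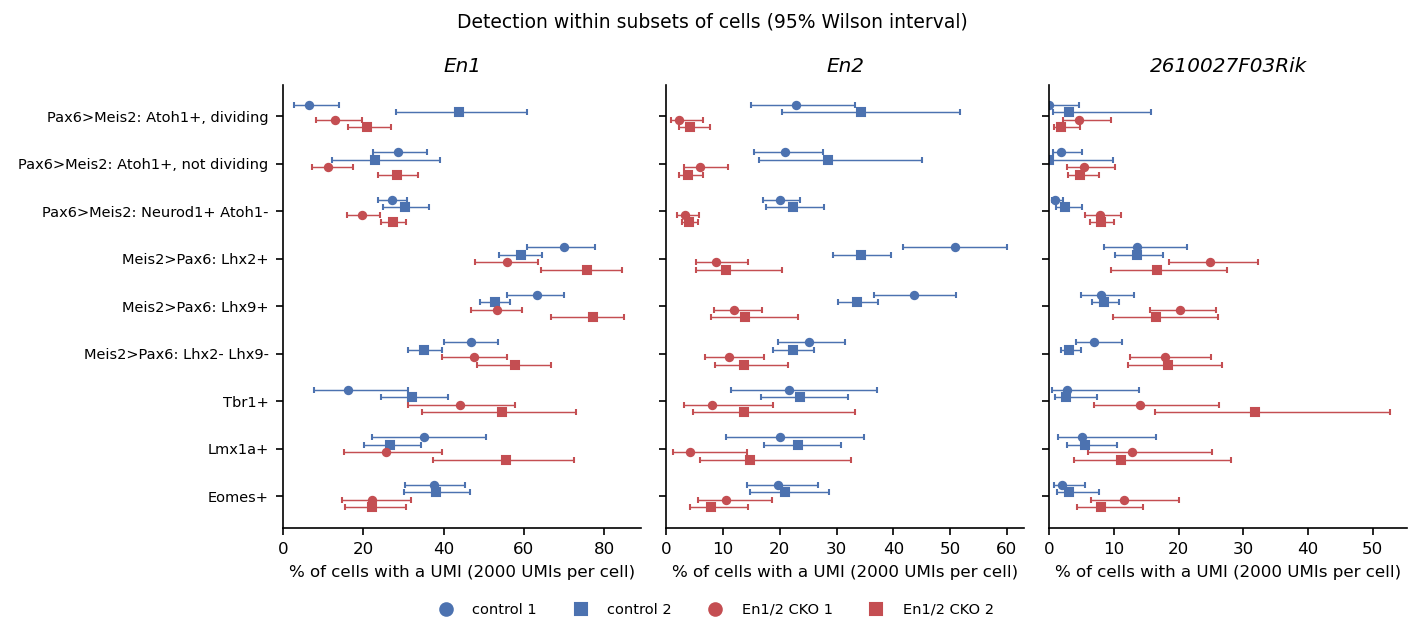
Percent of cells with at least 1 UMI (horizontal axis, thinned to 2000 UMIs) of En1, En2 and 2610027F03Rik in 9 subsets of cells, by library, with 95% Wilson intervals. En2 of both CKO libraries lies left of both controls in each subset, whereas En1 of Eomes cells is lower in CKO (22.1% in both) and En1 of Tbr1 cells higher (44.0% and 54.5%). Some En1 intervals of the groups overlap in both of these subsets.

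Cells that express Gad1 or Gad2 are mostly born outside the Atoh1 lineage, and the class defined by a single UMI of them was mixed. Of the 10 GABAergic markers, Ptf1a was at 0 in all 4 libraries, and the summed markers were at 1038 and 1962 CPM in the controls against 632 and 629 CPM in the CKO libraries. Dividing-cell genes ran the other way, at 667 and 330 CPM against 1474 and 2407 CPM, and 9 granule lineage genes stood at 2783, 1870, 2458 and 3510 CPM. The En2 difference in the Gad class therefore stands beside these differences in markers, whose part in it was not tested. Cells with at least 2 Gad UMIs, 7, 11, 8 and 7 of them, had En2 in 14.3% and 9.09% of control and 37.5% and 42.9% of CKO cells. Cells with Slc32a1, the vesicular GABA transporter (12, 9, 7 and 5 cells), had it in 25% and 22.2% against 42.9% and 40%. In these stricter sets En2 was not lower in the CKO libraries, on between 5 and 12 cells per library. The log2 ratio of the En2 shares in the Gad class, -0.54 with the class as described, was also 0.54 with the class set on thinned UMIs and 0.0329 in cells of no other class.

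Co-detection asks whether the same cells hold both transcripts. The number of cells with both was divided by the number expected if the 2 genes were spread independently over the cells of a class in that library. For En1 and En2 in the Pax6 class this ratio was 1.42 and 1.41 in the controls against 1.37 and 1.69 in the CKO libraries, on 99, 55, 11 and 43 cells with both. Meis2-class cells gave 1.19 and 1.33 against 1.15 and 1.28. Cells with En1 thus held En2 more often than cells without it in all 4 libraries of both classes. Tbr1 or Lmx1a cells gave 1.87 and 1.53 against 0.787 and 2.09, and the CKO values rest on 2 and 7 cells.

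The lincRNA was also found in cells with En1 more often than in cells without it, except in control 2 of the Gad class. Among Pax6-class cells the ratio for En1 and 2610027F03Rik was 2.49 and 2.17 in the controls against 2.78 and 2.45 in the CKO libraries, from 12, 7, 34 and 101 cells with both where 4.81, 3.23, 12.3 and 41.3 were expected. Put as shares, 19.4% and 16.5% of CKO cells with En1 held the lincRNA, against 4.49% and 3.10% of CKO cells without En1. In the controls the same shares were 3.55% and 4.14% against 0.703% and 0.983%. The lincRNA was thus more frequent in the CKO libraries both in cells with and in cells without detected En1, and the ratio kept a similar size, 2.33 ± 0.229 against 2.61 ± 0.231 (SD, n = 2 each). Meis2-class cells, in which En1 was detected more often, gave 1.38 and 1.65 against 1.36 and 1.20. Tbr1 or Lmx1a cells gave 2.56 and 2.44 against 2.22 and 1.79. The Gad class gave 2.37 and 0.965 against 2.40 and 2.09, on 2, 1, 4 and 3 cells with both.

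Other genes gave the level of such ratios in these cells. Over the 10371 to 10771 genes found in at least 1% of Pax6-class cells, the median ratio with En1 was 0.998, 0.998, 0.996 and 1.01 in the 4 libraries, and the 95th percentile was 1.40, 1.55, 1.66 and 1.41. The lincRNA ratio was above that of 99.99%, 99.5%, 99.9% and 99.98% of these genes. Among Meis2-class cells it was above 95.96%, 99.9%, 94.8% and 84.6% of genes. En2 in the Pax6 class stood above 95.8%, 91.3%, 85.2% and 98.99%. For En2 and 2610027F03Rik in the Pax6 class the ratio was 2.04 and 1.97 against 0.595 and 2.21, on 8, 5, 2 and 14 cells, too few to order the libraries. These cells share their library and depth, and the class still mixes stages, so the ratios describe cells and not a link between the genes.

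**Figure D4:**
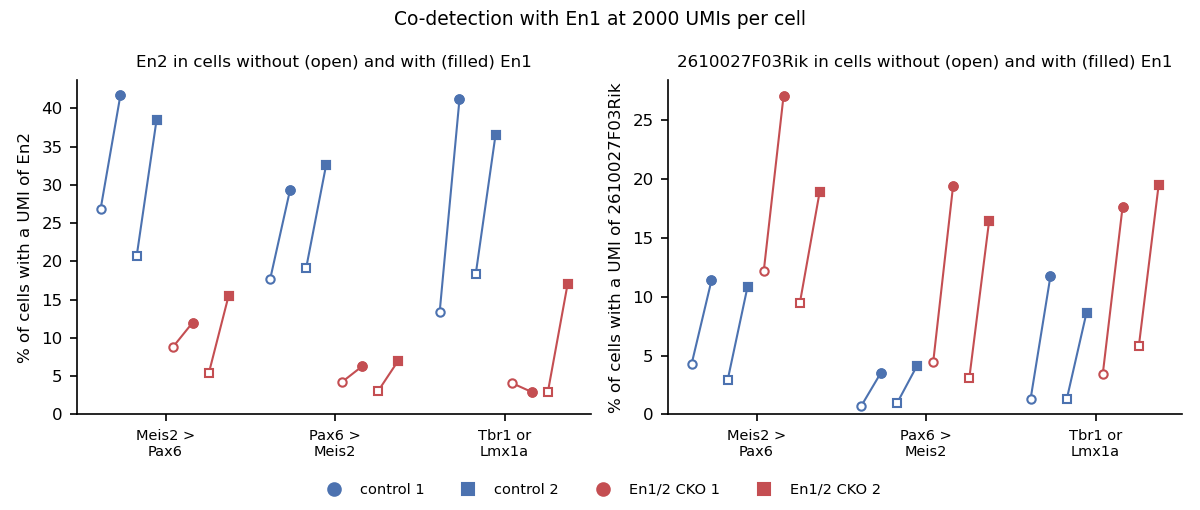
Percent of cells with an En2 UMI (left) or a 2610027F03Rik UMI (right) among cells without and with an En1 UMI, at 2000 UMIs per cell, for each library in 3 marker classes. In the right panel every filled point stands above its open point, for example 19.4% above 4.49% for CKO 1 in the Pax6 class. In the left panel 1 pair runs the other way, CKO 1 in the Tbr1 or Lmx1a class.

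The genes around both loci were tested with all others. Within 1000000 bases of En1 the annotation holds 25 genes besides the members, of which 12 were tested in at least 1 class, and within the same distance of En2 it holds 11, of which 5 were tested. None passed an adjusted p of 0.05 in any class in edgeR. At an unadjusted p under 0.05 there were 1 of 10, 1 of 12, 0 of 8 and 1 of 4 tested genes near En1 in the Meis2, Pax6, Tbr1 or Lmx1a and Gad classes, and 2 of 5, 3 of 5, 1 of 5 and 2 of 4 near En2. Over all tested genes the same counts were 1732 of 11804, 1368 of 13931, 912 of 10196 and 724 of 6736. The median log2 fold change was between 0.12 and 0.29 near En1 and between -0.79 and -0.48 near En2 over the 4 classes.

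The nearest tested gene past En1 was the lincRNA Gm29346 (chr1:120758443-120763565, plus strand), 150450 bases from En1. It starts 68039 bases past the GENCODE end of 2610027F03Rik but lies inside the RefSeq span of that gene, so the deposited counts may divide 1 transcription unit between 2 names. Over all kept cells it had 15 and 13 control UMIs and 63 and 63 CKO UMIs. Its change was a log2 value of 1.34 (SE 0.50, adjusted p = 0.263 in edgeR) in the Meis2 class and 2.52 (SE 0.71, adjusted p = 0.303) in the Pax6 class. Neither passed the test. The Pax6-class value rests on 5 UMIs of control 1 and 0 of control 2. It was 2.13 without control 2, and 7.83 without control 1, where the lone control is at 0 and the fitted value is no bound. With no filter on low counts the Pax6-class value was 2.53 with an adjusted p of 0.0273. On the other side of En1 the nearest tested gene was 3110009E18Rik, 414228 bases away, at 0.50 (adjusted p = 0.541), 0.24 (0.740) and 0.40 (0.750) in the Meis2, Pax6 and Tbr1 or Lmx1a classes.

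Cnpy1, which encodes a regulator of fibroblast growth factor signalling, lies 28652 bases past En2 on the opposite strand. In the Meis2 class it was at 146 and 133 control CPM against 90.1 and 75.3 CKO CPM, and at 58.2 and 84.2 CPM against 35.2 and 37.4 CPM in the Pax6 class. Both CKO libraries lay below both controls in all 4 classes, and no class passed the test. The log2 fold change was -0.70 (SE 0.21, adjusted p = 0.181 in edgeR) in the Meis2 class, -0.83 (SE 0.23, 0.299) in the Pax6 class, -0.54 (0.563) in the Tbr1 or Lmx1a class and -0.81 (0.460) in the Gad class. The Gad-class value was -1.58 without CKO 1 and -0.27 without CKO 2. Insig1, which holds back sterol synthesis and lies 87031 bases before En2, was at -0.48 (adjusted p = 0.306), -0.61 (0.494), -0.48 (0.667) and -0.78 (0.474) in the same order. Over all kept cells, those with Cnpy1 held En1 more often than independence gives. The ratios were 1.39 and 1.27 in the controls against 1.35 and 1.59 in the CKO libraries, but this set mixes classes that differ in both genes. Within the Meis2 class they were 1.0999 and 1.21 against 1.222 and 1.176. Within the Pax6 class they were 1.38 and 1.34 against 1.098 and 1.55. For Cnpy1 with En2 the Pax6 class gave 1.35 and 0.773 against 1.43 and 1.31. The Meis2 class gave 1.25 to 2.44 over the 4 libraries.

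**Figure D5:**
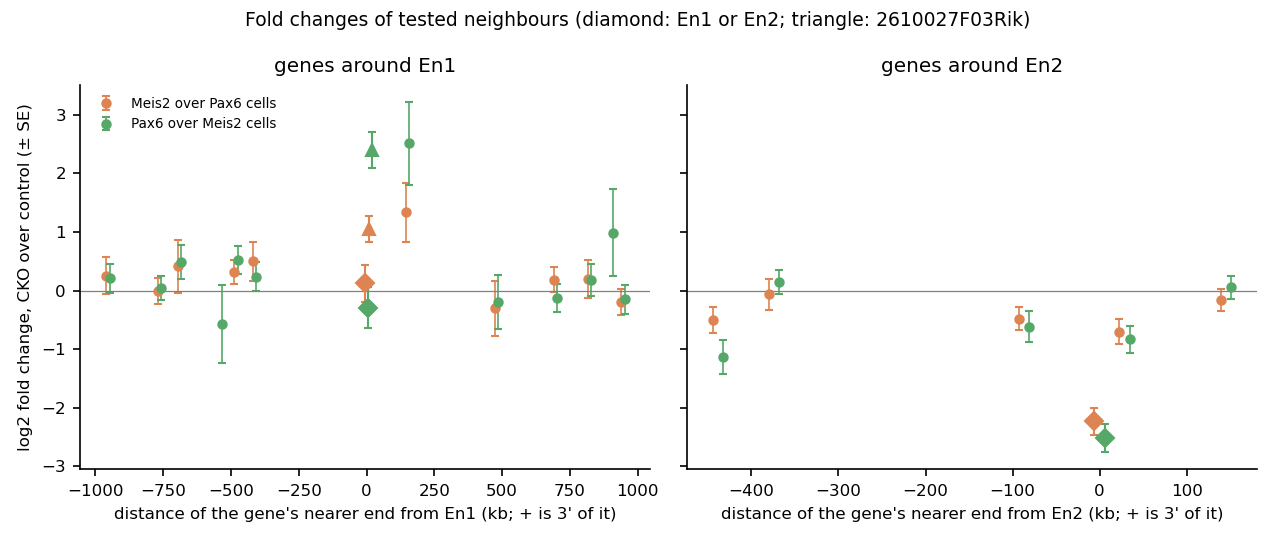
Log2 fold change of the CKO over the control libraries with its SE (vertical axis) for tested genes within 1000 kb of En1 and En2, against distance in kb, in the Meis2 and Pax6 classes. The points past En1 that stand highest are 2610027F03Rik and Gm29346 (2.41 and 2.52 in the Pax6 class), and En2 is the lowest point near its own locus at -2.24 and -2.51.

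Genes of the pathway around engrailed were taken from 3 lists. Of 12 genes of the midbrain-hindbrain boundary, which include the Fgf8 and Wnt1 signals and the Pax2, Pax5 and Pax8 factors, 4, 5, 4 and 4 were abundant enough to be tested in the Meis2, Pax6, Tbr1 or Lmx1a and Gad classes. None rose or fell past the threshold in edgeR, and 2, 3, 1 and 1 had an unadjusted p under 0.05. Over all tested genes the same counts were 1732 of 11804, 1368 of 13931, 912 of 10196 and 724 of 6736. Cnpy1, counted above among the genes near En2, is among these boundary genes in the Meis2, Pax6 and Gad classes. The median log2 fold change of the tested boundary genes was 0.04, -0.58, 0.03 and -0.06, against -0.01, -0.01, 0.01 and 0.00 over all tested genes. Pax5, a paired-box factor that works beside engrailed at the boundary, was the most abundant. Meis2-class cells had it at 428 and 293 CPM against 346 and 335 CPM (log2 fold change -0.03, adjusted p = 0.967). Pax6-class cells had it at 40.9 and 59.6 CPM against 20.7 and 22.4 CPM (-1.08, SE 0.23, adjusted p = 0.179). In the latter class Pax5 did pass the threshold with DESeq2 (adjusted p = 0.0357), with no filter on low counts (0.00254), and with sums of thinned cells (0.0273). These settings called 90 of 13931, 348 of 21414 and 50 of 11202 genes there, and the last was chosen after seeing the data. Pax5 did not pass with a replicate block, which called 0 genes in this class.

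Of 13 engrailed partners (Groucho corepressors of the Tle family and cofactors of the Pbx and Meis families, with Foxa2), 12 were tested in each class and Foxa2 was too scarce. None passed the threshold, and 4, 3, 3 and 3 of the 12 had an unadjusted p under 0.05, as had 1732 of 11804, 1368 of 13931, 912 of 10196 and 724 of 6736 of all tested genes. The median log2 fold change was -0.18, -0.10, -0.14 and -0.27. The most abundant was Meis2 itself, whose UMIs set the classes and whose fold is therefore not read. The Tle genes came nearest to the threshold and are named after their values were seen. Tle2 was at 58.0 and 35.6 CPM against 15.2 and 14.05 CPM in the Meis2 class (log2 fold change -1.58, adjusted p = 0.0657 in edgeR). Tle3 was at -1.24 (0.0704) and Tle4 at -1.36 (0.0975) there, while Tle1 was at 1.06 (0.103) and Tle5 at 0.32 (0.593). Tle2 in the Pax6 class was at 10.8 and 7.88 CPM against 0.676 and 1.81 CPM (log2 fold change -2.74, adjusted p = 0.0905). Of the 3 genes listed as engrailed targets in other settings, Efna2, Efna5 and Map1b, none passed the test in any class, and 1 had an unadjusted p under 0.05, in the Meis2 class. Map1b, a microtubule-associated protein gene of growing axons and the most abundant of them, was at 3905 and 3611 control CPM against 2825 and 2535 CKO CPM in the Meis2 class (log2 fold change -0.45, adjusted p = 0.436).

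Likeness in pattern was measured as Pearson's r of log2(CPM + 1) over the 16 sums of 4 libraries by 4 classes, among 9268 genes of at least 10 CPM on average. The 16 points share libraries, cells and depth, so r is a description. Nearest to En1 were Zer1 (0.958), Syt7 (0.933), Ss18l1 (0.933), Ralgapa1 (0.929) and Igf1r (0.923). Nearest to En2 were R3hdm1 (0.928), Fat4 (0.913), BC005561 (0.912), Gm16105 (0.909) and the mitochondrial gene mt-Co3 (0.899). Over the 8 control sums alone their r with En2 was 0.856, 0.523, 0.336, 0.787 and 0.479, in the same order. Each of them had a lower mean CPM in the CKO libraries in all 4 classes, so this likeness includes the difference between the groups. Nearest to 2610027F03Rik were Pcp4l1 (0.825), Gnai1 (0.819), Epb41l3 (0.8002), Gabbr2 (0.778) and Ccdc88c (0.777). For the genes nearest to En1 and to the lincRNA, r over the 8 control sums was between 0.809 and 0.977. The genes nearest to En1 also had a lower mean CPM in the CKO libraries in all 4 classes. Of those nearest to the lincRNA, Gnai1, Epb41l3 and Gabbr2 had a higher one in all 4 classes. Pcp4l1 was higher in all but the Pax6 class and Ccdc88c in all but the Gad class. These likenesses therefore include the difference between the groups as well. Over the 8 control sums the members followed each other, with r of 0.932 for En1 and En2, 0.958 for En1 and the lincRNA and 0.899 for En2 and the lincRNA. Over all 16 sums these values were 0.467, 0.421 and -0.24.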

How the data were processed

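The deposited matrices hold raw counts of UMIs per gene and cell barcode, which the authors made with Cell Ranger 5.0.0 on mm10, per the submitters' processing notes, and did not normalize. The 3 members and all gene lists were chosen with earlier results of these data known. Per cell, UMIs were thinned without replacement to 2000 (1000 and 3000 as alternatives). Classes were set on all UMIs of a cell, subsets on thinned UMIs. Dividing cells held 2 or more UMIs summed over Top2a, Mki67, Birc5, Cdk1, Cenpf and Ube2c. Cells that scored as likely doublets (Scrublet algorithm, 68, 124, 32 and 109 per library) were kept and left out as an alternative. Counts were summed per library and class and fitted by edgeR 4.0.16 (R 4.3.3; TMM, filterByExpr, quasi-likelihood F test, two-sided, Benjamini-Hochberg over all genes of a class, threshold 0.05). The SE was taken as the fitted change divided by the root of F. DESeq2 1.42.0 was an alternative. The labels do not say which embryos entered which library, so p-values measure the spread between libraries. Genes named beside the members were the nearest tested gene on each side of En1 and En2, called neighbours, called or most abundant list members, and the 5 genes nearest in pattern. CPM are UMIs per 1000000 of the class. Counting error alone is behind the Wilson and Poisson intervals (95%) and the limit of 3 counts given where a share is 0. Gene coordinates are from GENCODE M21, where 32158 of 32285 gene IDs were found, and promoter windows from RefSeq. The fit and the thinning were tested on simulated data. Analyses ran in Python 3.11.15 with numpy 2.4.6, scipy 1.17.1, pandas 2.3.3 and matplotlib 3.10.9.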

Additional observations from a re-analysis of the deposited data

Results flagged for a closer look

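Barcodes that the cell filters left out enter none of the comparisons, and in them En1 and 2610027F03Rik were higher in both CKO libraries than in the same kind of barcodes of both controls. En1 stood at 339 CPM in the barcodes left out of CKO 1 and 588 CPM in those of CKO 2, against 223 and 323 CPM in those of the controls. 2610027F03Rik stood at 91.7 CPM in the barcodes left out of CKO 1 and 67.7 CPM in those of CKO 2, against 12.8 and 21.003 CPM in those of the controls. En2 in the same barcodes was lower in the CKO libraries, at 42.1 and 42.6 CPM against 145 and 140 CPM. The En1 levels of CKO 1 and control 2 lay close together. These barcodes were not divided by class, and the share of all genes placed likewise in them was not counted. The values are therefore a description, and nothing is read from the order of the libraries.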

How the results depend on the processing

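The number of genes called depended on the settings more than the members did. Against 25, 8, 1 and 27 called genes in the Meis2, Pax6, Tbr1 or Lmx1a and Gad classes, no filter on low counts gave 559, 348, 256 and 135, and DESeq2 gave 174, 90, 13 and 7. Cells of 4000 or more UMIs with no more than 5% of them mitochondrial (the stricter cells) gave 42, 1, 2 and 0 (341 at an unadjusted p under 0.05 in the last). Cells of 1 class only gave 81, 10, 0 and 0 (36 and 50 unadjusted in the last 2), and leaving out likely doublets gave 4 in the Pax6 class. Sums of cells thinned to 2000 UMIs, an alternative chosen after seeing the data, gave 14, 50, 2 and 0 (146 unadjusted in the last). Leaving out 1 library gave 44 to 751, 2 to 123, 6 to 461 and 3 to 191. The cause of these shifts was not tested.

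The replicate numbers of the labels do not state a pairing, and libraries with the same number did not deviate together, with correlations of -0.21, -0.16, -0.10 and -0.06 in the 4 classes. A replicate block called 58, 0, 0 and 8 genes, with 1358 and 766 at an unadjusted p under 0.05 where it called 0. The crossed pairing, chosen after seeing the data, called 763 in the Meis2 and 207 in the Pax6 class.

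Detection ratios (log2 of the CKO over the control share) of En2 kept their sign except in the small classes. In the Tbr1 or Lmx1a class En2 was at -1.95, and at 0.0589 in cells of 1 class only, which number 10, 50, 16 and 3. In the Gad class it was at -0.54, and at 0.54 with classes set on thinned UMIs, 0.0329 in cells of 1 class only and 0.65 with at least 2 Gad UMIs. The lincRNA in the Tbr1 or Lmx1a class, at 1.21, was at -0.94 in cells of 1 class only. En1 turned from 0.22 to -0.20 in the Meis2 class and from -0.15 to 0.14 in the Gad class in the stricter cells, and to 0.12 in the Gad class with at least 2 Gad UMIs. En1 in the Tbr1 or Lmx1a class, at 0.16, was at 0.32 at 1000 UMIs, -0.11 at 3000, 0.66 with thinned classes, 1.21 in cells of 1 class only and -0.10 in the stricter cells. En2 moved without a change of sign to -1.97 at 3000 UMIs and -2.44 in the stricter cells in the Meis2 class, to -1.97 at 1000 UMIs and -2.89 in the stricter cells in the Pax6 class, to -2.74 at 3000 UMIs and -1.09 with thinned classes in the Tbr1 or Lmx1a class, and to -0.93 at 1000 UMIs and -1.43 in the stricter cells in the Gad class. The lincRNA moved to 3.26 at 1000 UMIs, 2.40 at 3000 and 1.45 in the stricter cells in the Pax6 class, to 1.66 at 1000 UMIs and 1.90 with thinned classes in the Tbr1 or Lmx1a class, and to 2.31 at 1000 UMIs, 0.45 with thinned classes and 0.17 with at least 2 Gad UMIs in the Gad class. Its ratio in the stricter Gad cells was not run, since both controls were at 0. The values given here for at least 2 Gad UMIs belong to another set than the 7, 11, 8 and 7 cells described above. In those cells, set on thinned UMIs, the log2 ratio was 1.78 for En2, 0.03 for En1 and -1.18 for the lincRNA. The sign of the lincRNA thus turned there. The 48 values with 1 library left out moved by less than the spread between libraries.

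As group means, co-detection ratios of En1 with 2610027F03Rik stayed above 1 at every depth and class setting run, although control 2 alone was at 0.965 in the Gad class. They moved to 1.42 (Meis2 class, CKO), 2.69 (Pax6 class, control), 3.41 and 2.36 (Tbr1 or Lmx1a class, control and CKO) and 3.74 (Gad class, CKO) at 1000 UMIs. At 3000 UMIs they moved to 2.21 (Pax6 class, CKO) and 2.26 (Tbr1 or Lmx1a class, control), and with thinned classes to 2.94 (Tbr1 or Lmx1a class, control) and 2.66 (Gad class, CKO). For En1 with En2 the values that moved were 0.998 (Meis2 class, CKO), 1.25 (Pax6 class, control) and 1.61 (Gad class, control) at 1000 UMIs, 1.36 and 1.40 (controls of the Pax6 and Gad classes) at 3000 UMIs, and 1.37 (Pax6 class, control) with thinned classes.

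Among single genes, the log2 fold change of En1 in the Gad class was 0.0095 with sums of thinned cells. With 1 library left out, Insig1 in the Tbr1 or Lmx1a class ran from -1.02 to 0.16 (the latter without control 2) and Meis2 in the Pax6 class from -1.57 to 0.22 (likewise). Cnpy1 in the Gad class was 0.98 in cells of 1 class only and 0.15 with thinned sums. With 2 libraries per group, differences in depth, sex and red cell RNA cannot be told apart from the genotype.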
